A study of Homo sapiens with 16 samples.

Results

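The genes of the DNA replication machinery are described here in cells of SW480, a line grown from a human colorectal carcinoma. The 53 members were taken as a list of symbols that covers the replication machinery from origin recognition to the chromatin behind the fork. All 53 had a probe set paired with a single gene, and they made up 53 of the 19775 genes measured. Where a gene had several such probe sets, the brightest by its mean over all arrays was used. The members were sorted into 10 roles: origin recognition, licensing, the replicative helicase core, helicase activation, polymerases and primase, the clamp and its loader, single-strand binding with Okazaki fragment joining, nucleotide supply, fork protection, and chromatin behind the fork.

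The series asked what TAZ adds to Wnt signalling in these cells. It holds 16 Affymetrix arrays in 4 groups of 4, lettered A to D, and the labels call them biological replicates without saying whether each letter was a culture of its own, so the p-values measure the spread between these arrays. The control group, siGFP, carried an empty vector in stable form and received a control siRNA. The siTAZ group carried the same empty vector and received an siRNA to TAZ, the product of WWTR1 and a partner of the TEAD transcription factors. The sibcat group carried the empty vector and received an siRNA to beta-catenin, the product of CTNNB1 and the effector of Wnt signalling. The APC group carried a vector for wild-type APC in stable form and received the control siRNA, so it differed from the control in its vector and not in its siRNA. The SW480 line itself lacks full-length APC, a part of the complex that marks beta-catenin for destruction. All groups were grown alike, in serum with insulin, hydrocortisone and a thiol supplement, and were harvested without further treatment. The labels do not say whether the APC cells were 1 clone, and each siRNA target had 1 condition.

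As background, a replication origin is first bound by the origin recognition complex, on which CDC6 and CDT1 load the MCM ring in G1 phase, and geminin holds CDT1 back later in the cycle. In S phase the kinase CDC7 with DBF4, together with MCM10, CDC45 and the GINS complex, turns that ring into a moving helicase, behind which primase, the polymerases, the PCNA clamp, RPA, FEN1 and LIG1 copy the strands. Many of these genes are transcribed in late G1 and S phase under E2F factors, and dividing cells, those of colorectal cancer included, express them.

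Values are log2 expression levels, and folds and percents of control are computed back from their differences. A member is called lower or higher where the limma fit over all 19775 genes gave a Benjamini-Hochberg adjusted p under 0.05 in that comparison. Arrays do not overlap where every array of a group lies on the same side of every array of the other. Shares over all genes were not computed for counts at a fold cutoff, at an unadjusted p or under changed settings of the fit. Those counts describe the members alone. With 4 arrays against 4, the smallest p that an exact two-sided permutation test can give is 0.0286. In whole cultures, fewer cells in S phase and less RNA of a gene per cell cannot be told apart.

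The targeted genes came first. WWTR1 read 9.66% of its control level in siTAZ cells, a difference of -3.37 (limma adjusted p = 8.87e-15), and CTNNB1 read 12.8% in sibcat cells, a difference of -2.96 (limma adjusted p = 2.18e-12). WWTR1 read 10.93 to 11.05 in sibcat and 10.90 to 11.06 in APC arrays, above siGFP arrays (10.13 to 10.39). CTNNB1 read 12.59 to 12.88 in APC arrays, below siGFP arrays (12.97 to 13.27), and 13.18 to 13.39 in siTAZ arrays. The part of these differences in the results was not tested. The brightest APC probe set did not pass the test in APC cells, at a difference of 0.08 (limma adjusted p = 0.709), so it gave no check of that label. All 8 intestinal epithelial markers lay above the median probe set level of 5.10 in each group. The dimmest of them were CDX1 (5.85 to 5.93), VIL1 (5.56 to 6.98) and CDX2 (5.59 to 7.04). CDH1 read 9.88 in siGFP, 8.75 in siTAZ, 10.3 in sibcat and 10.01 in APC cells. PECAM1 of 3 endothelial markers (5.84 to 6.10) also lay above that level of 5.10 in each group. So did COL1A1 (6.83 to 6.99) and PDGFRB (5.40 to 5.53) of 4 fibroblast markers. The other endothelial and fibroblast markers (CDH5, VWF, COL1A2 and DCN), PTPRC of the leukocytes and both liver markers lay below it in each group. The summed level of the 3 leukocyte markers measured, of 5 listed, ran from 12.72 to 13.54 in siGFP, 13.02 to 13.73 in siTAZ, 14.12 to 14.69 in sibcat and 13.08 to 13.32 in APC arrays. CD3E lay between 5.04 and 5.22, and CD14 read 4.60 in siGFP, 5.20 in siTAZ (limma adjusted p = 1.34e-05 against siGFP), 6.24 in sibcat (limma adjusted p = 4.83e-11) and 5.08 in APC cells (limma adjusted p = 9.45e-05). The part of these genes in the results was not tested. All 53 member means lay above 5.10 in each group, the lowest being ORC1 in sibcat cells at 6.06. The SD among the 4 arrays of a group had a median over members between 0.0574 and 0.0663. An RNA quality measure, the ACTB control probe set at the 3′ end minus that at the 5′ end, ran from 1.90 to 2.26 in siGFP arrays, 2.25 to 3.09 in siTAZ arrays (exact permutation p = 0.0571 against siGFP), 2.07 to 2.56 in sibcat arrays (exact permutation p = 0.171) and 1.74 to 2.39 in APC arrays (exact permutation p = 0.914).

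The replication genes fell nearly throughout in sibcat cells, fell in part in siTAZ cells, and mostly rose or did not pass the test in APC cells. In sibcat cells 49 of 53 members were lower than in siGFP cells and 0 were higher (0 also at an unadjusted limma p under 0.05, where 51 were lower), against 17.3% of all genes called lower and 18.6% called higher. In siTAZ cells 24 were lower and 4 higher, against 13.1% and 17.0% of all genes. In APC cells 6 were lower and 30 higher, against 17.1% and 16.6% of all genes. The median difference of the members was -0.50 in sibcat, -0.16 in siTAZ and 0.20 in APC cells, beside medians over all genes of 0.00, 0.02 and 0.01. These 3 comparisons share the siGFP arrays, so the values are given side by side and are not independent.

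**Figure D1:**
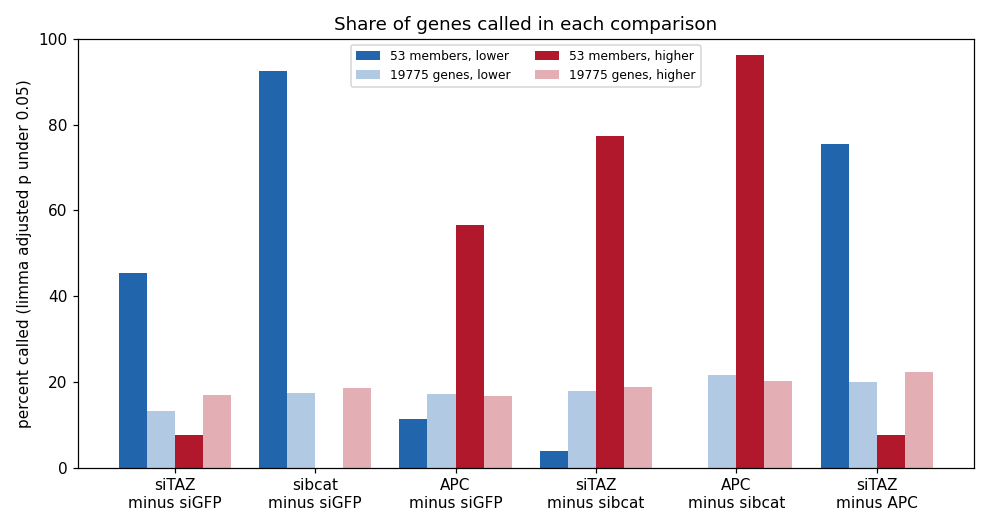
The bars give the percent of genes called lower (blue) or higher (red) by limma in each of the 6 comparisons, dark for the 53 replication genes and pale for all 19775 genes. The dark blue bar stands at 92.5% for sibcat against siGFP, and the dark red bar stands at 56.6% for APC against siGFP.

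The 4 group means of each gene were also ranked. The sibcat mean was the lowest of the 4 for 46 of 53 members (86.8%, against 27.2% of all genes), and the APC mean was the highest for 40 (75.5%, against 30.9% of all genes). For 37 members all 4 sibcat arrays lay below all 12 others, which held for 6.79% of all genes. For 24 members all 4 APC arrays lay above all 12 others, which held for 7.38% of all genes. The siTAZ arrays lay below all others for 3 members, PCNA, PRIM1 and POLE2, which held for 5.29% of all genes. They lay above all others for CDT1 alone, which held for 6.89% of all genes. These siTAZ counts were near or under the shares over all genes. The siGFP arrays lay above all others for 2 members, PRIM1 and RRM2, which held for 1.71% of all genes.

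**Figure D2:**
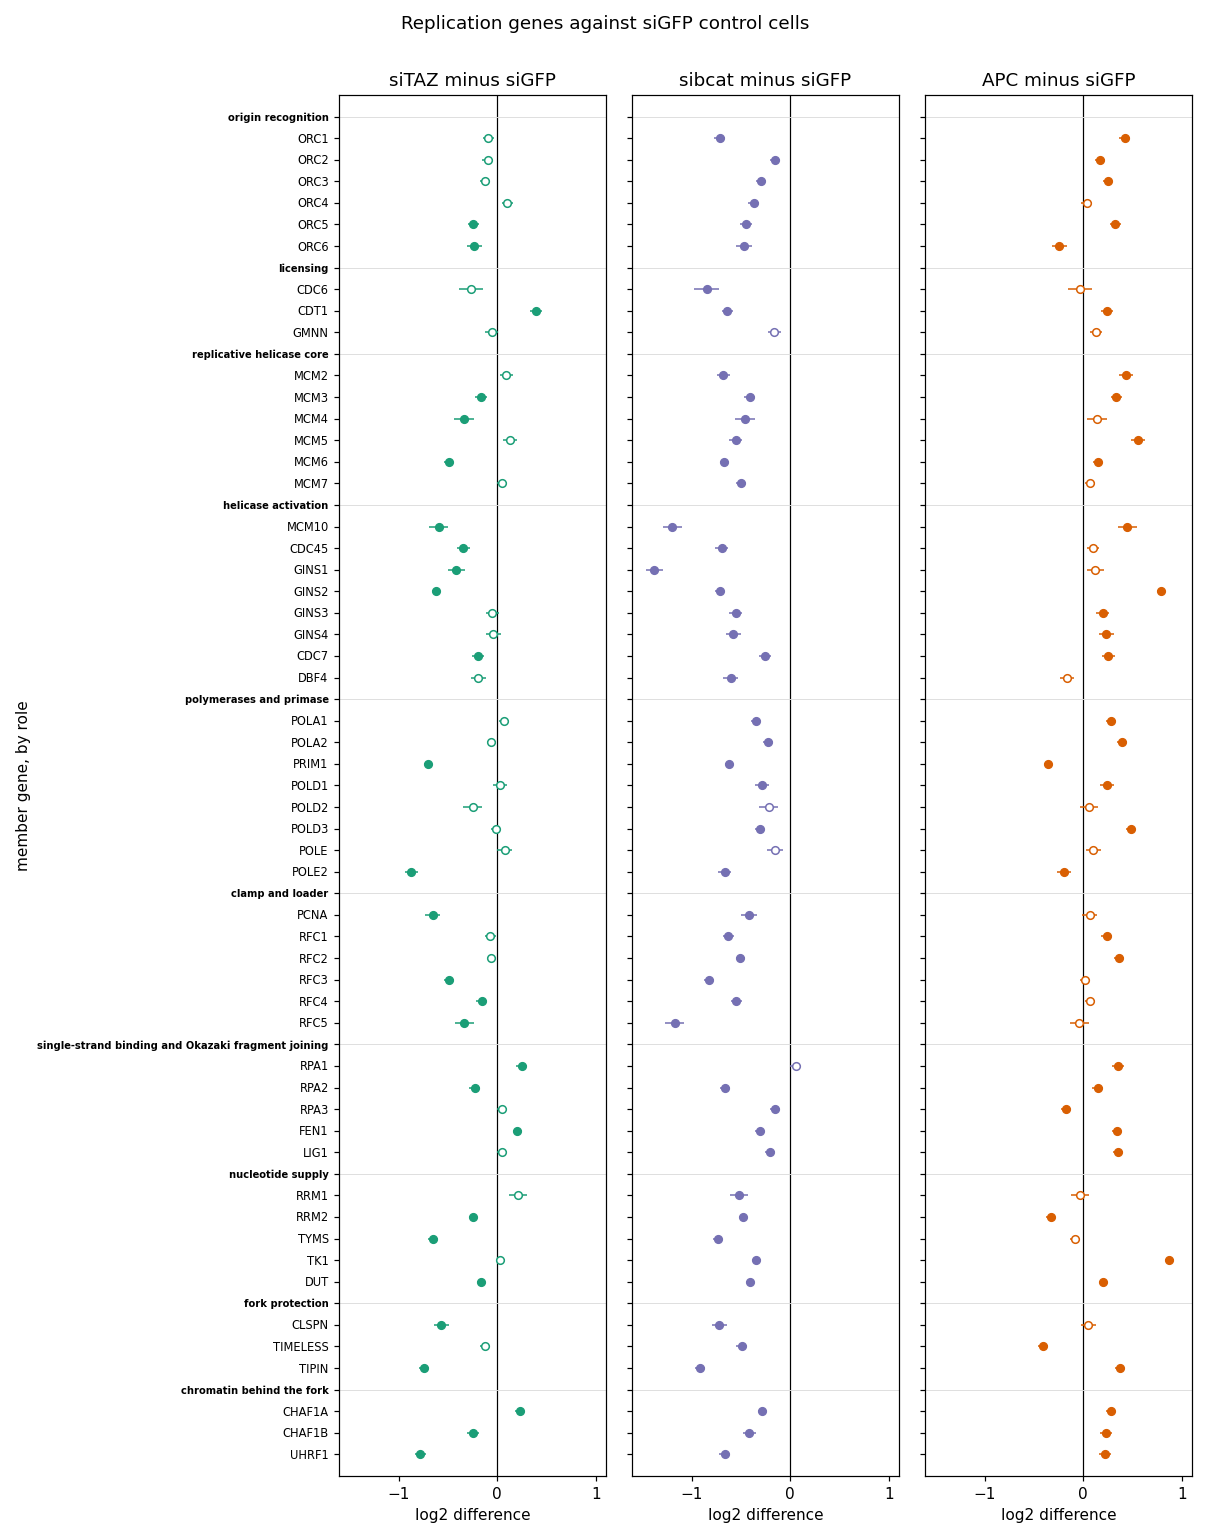
Each point is the log2 difference of a replication gene from siGFP control cells, with its standard error from the limma fit as a bar, in siTAZ (left), sibcat (middle) and APC cells (right). Filled points passed an adjusted p under 0.05 and open points did not, and genes are ordered by role. In the sibcat panel 49 points are filled and lie left of 0, while in the APC panel 30 filled points lie right of 0.

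Promoter windows are shown for the 5 members with the largest mean fall over the 3 comparisons with siGFP and for the 2 that fell least. They come from RefSeq on GRCh38.p14, cover 250 bases before to 50 bases after the annotated start, and are written 5′ to 3′ along the gene's strand. Capitals mark each match to a searched motif, on either strand: the E2F consensus (TTTCCCGC, TTTCGCGC, TTTGCCGC or TTTGGCGC) and the CCAAT box (CCAAT). The CHR element (TTTGAA), a site of the DREAM complex, was searched too and matched none of these 7 windows. The first 5 windows belong to POLE2, PRIM1, GINS1, RFC5 and TYMS, whose mean differences ran from -0.58 to -0.49.
POLE2, chr14:49688165-49688464, minus strand: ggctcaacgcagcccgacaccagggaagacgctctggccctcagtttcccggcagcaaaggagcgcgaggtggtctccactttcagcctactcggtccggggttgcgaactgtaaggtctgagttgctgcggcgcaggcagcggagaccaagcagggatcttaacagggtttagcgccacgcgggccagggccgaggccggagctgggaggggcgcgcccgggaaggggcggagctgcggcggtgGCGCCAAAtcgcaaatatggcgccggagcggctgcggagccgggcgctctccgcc
PRIM1, chr12:56752274-56752573, minus strand: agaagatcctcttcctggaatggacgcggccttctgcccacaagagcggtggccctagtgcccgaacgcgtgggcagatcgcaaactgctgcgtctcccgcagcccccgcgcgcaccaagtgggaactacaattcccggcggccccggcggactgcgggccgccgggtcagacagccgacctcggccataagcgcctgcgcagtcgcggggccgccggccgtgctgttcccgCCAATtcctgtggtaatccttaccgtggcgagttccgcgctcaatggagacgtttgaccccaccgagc
GINS1, chr20:25407423-25407722, plus strand: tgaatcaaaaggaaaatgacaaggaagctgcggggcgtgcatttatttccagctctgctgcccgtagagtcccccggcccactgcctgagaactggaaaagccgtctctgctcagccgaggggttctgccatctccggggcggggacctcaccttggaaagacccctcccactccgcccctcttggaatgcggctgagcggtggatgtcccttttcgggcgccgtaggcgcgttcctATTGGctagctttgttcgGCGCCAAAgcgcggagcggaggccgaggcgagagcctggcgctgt
RFC5, chr12:118016453-118016752, plus strand: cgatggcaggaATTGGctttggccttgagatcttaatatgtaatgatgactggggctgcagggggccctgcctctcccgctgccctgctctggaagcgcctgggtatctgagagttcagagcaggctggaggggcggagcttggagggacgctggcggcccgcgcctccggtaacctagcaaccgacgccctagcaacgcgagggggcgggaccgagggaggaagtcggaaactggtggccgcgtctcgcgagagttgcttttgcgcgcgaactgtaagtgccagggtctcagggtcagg
TYMS, chr18:657403-657702, plus strand: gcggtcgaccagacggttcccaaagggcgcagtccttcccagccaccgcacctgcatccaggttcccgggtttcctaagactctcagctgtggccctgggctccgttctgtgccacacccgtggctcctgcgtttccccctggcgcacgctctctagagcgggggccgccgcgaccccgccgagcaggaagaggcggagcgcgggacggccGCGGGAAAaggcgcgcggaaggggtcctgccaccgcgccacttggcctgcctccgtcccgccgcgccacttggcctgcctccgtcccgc
The other 2 windows belong to TK1 and RPA1, whose mean differences were 0.19 and 0.22.
TK1, chr17:78187155-78187454, minus strand: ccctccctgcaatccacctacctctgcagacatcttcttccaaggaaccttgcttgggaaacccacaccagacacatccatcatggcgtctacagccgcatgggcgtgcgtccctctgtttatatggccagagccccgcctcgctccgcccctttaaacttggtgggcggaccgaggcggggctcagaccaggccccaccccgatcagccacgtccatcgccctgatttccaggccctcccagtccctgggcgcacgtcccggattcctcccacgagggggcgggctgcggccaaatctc
RPA1, chr17:1829755-1830054, plus strand: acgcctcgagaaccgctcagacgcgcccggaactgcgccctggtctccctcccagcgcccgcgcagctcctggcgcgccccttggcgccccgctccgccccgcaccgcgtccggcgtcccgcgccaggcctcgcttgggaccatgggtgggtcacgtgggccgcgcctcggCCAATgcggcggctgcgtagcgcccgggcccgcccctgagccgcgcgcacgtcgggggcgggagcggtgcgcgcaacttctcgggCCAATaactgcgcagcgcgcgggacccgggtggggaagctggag
The E2F matches in the POLE2 and GINS1 windows lie close to the start, and that in the TYMS window lies farther upstream. TK1 showed no match to these letters in its window, which says nothing about the factor.

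A window was found for 47 of the 53 members. The E2F consensus was present in 20 of these 47 (42.6%), against 4.44% of the 15843 protein-coding promoters of the table and 3.31% of all 35116. The CCAAT box was present in 27 (57.4%), against 36.4% and 34.6%. The CHR element was present in 2 (4.26%), DBF4 and RRM1, against 12.1% and 15.2%. No searched motif contains another, and both kinds can share a window, as in GINS1. Members with the E2F consensus had a median difference from siGFP cells of -0.65 in sibcat, -0.22 in siTAZ and 0.17 in APC cells. Members without it had medians of -0.47, -0.16 and 0.20, and the difference between these sets was not tested.

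In sibcat cells the genes of helicase activation and the clamp loader held the largest falls. GINS1, a subunit of the GINS complex of the moving helicase, read 38.5% of control, MCM10, which helps to activate that helicase, 43.7%, and RFC5, a subunit of the clamp loader, 44.4%. These 3 were the members that fell at least 2-fold, and 20 fell at least 1.5-fold, with no share over all genes computed at these folds. For 47 members the sibcat arrays lay wholly below the siGFP arrays, which held for 15.8% of all genes, and for 0 wholly above (17.8% of all genes). With the ACTB measure as a covariate the counts were 49 lower and 0 higher. POLD2, POLE, RPA1 and GMNN did not pass the test.

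GINS1 read 10.45, 10.46, 10.59 and 10.70 in siGFP arrays A to D and 9.05, 9.10, 9.25 and 9.29 in sibcat arrays. The groups lay more than a unit apart, with no overlap, and the difference was -1.38 (SE 0.0864, limma adjusted p = 1.52e-09). MCM10 read 8.49, 8.50, 8.63 and 8.75 in siGFP arrays and 7.14, 7.39, 7.58 and 7.48 in sibcat arrays, of which A was the lowest. Its difference was -1.20 (SE 0.0942, limma adjusted p = 2.56e-08), and its other probe sets gave -0.95 and -0.72, lower as well. All 8 helicase activators fell, with a median of -0.65. CDC45, which rides with the MCM ring and GINS, fell by 0.70 (limma adjusted p = 2.10e-07), and DBF4, the activating subunit of CDC7, fell by 0.60 (limma adjusted p = 5.70e-06).

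RFC5 read 10.01, 9.81, 10.10 and 10.15 in siGFP arrays and 8.70, 8.70, 8.95 and 9.03 in sibcat arrays. No array overlapped, and the difference was -1.17 (SE 0.0969, limma adjusted p = 4.49e-08). Of its other probe sets, 1 gave -1.10 and another -0.15, which did not pass (limma adjusted p = 0.501 over all probe sets). PCNA, the sliding clamp that RFC loads, read 12.55, 12.21, 12.58 and 12.66 in siGFP arrays and 12.05, 12.12, 12.12 and 12.04 in sibcat arrays. Control array B came close to the sibcat arrays without overlap, and the difference was -0.42 (SE 0.077, limma adjusted p = 0.00033). All 6 genes of the clamp and its loader fell, with RFC3 at -0.83 (limma adjusted p = 1.61e-09).

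Among the licensing factors, CDC6 read 8.73, 8.50, 8.90 and 9.12 in siGFP arrays and 7.84, 7.77, 8.16 and 8.09 in sibcat arrays. It varied more among control arrays than any other member (SD 0.263), yet the groups did not overlap, and the difference was -0.85 (SE 0.125, limma adjusted p = 3.58e-05). CDT1, its partner in loading the MCM ring, read 8.74, 8.53, 8.73 and 8.74 in siGFP arrays and 8.04, 8.07, 8.13 and 7.95 in sibcat arrays. Again no array overlapped, and the difference was -0.64 (SE 0.0584, limma adjusted p = 1.59e-07). GMNN, which encodes geminin, the CDT1 inhibitor, read 10.38, 10.16, 10.40 and 10.44 in siGFP arrays and 10.14, 10.17, 10.25 and 10.18 in sibcat arrays. Control array B lay within the sibcat values, and the difference of -0.16 did not pass (limma adjusted p = 0.0591).

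All 6 subunits of the origin recognition complex fell. ORC1, the subunit whose level follows the cell cycle, read 6.78, 6.69, 6.79 and 6.84 in siGFP arrays and 6.02, 5.99, 6.11 and 6.12 in sibcat arrays. The difference of -0.72 (SE 0.0553, limma adjusted p = 1.99e-08) was the largest of the complex, and ORC2 was at the other end at -0.16 (limma adjusted p = 0.0331), with overlapping arrays. The ORC2 call was lost without any of siGFP arrays A, C and D or sibcat arrays A, B and D. Its other probe set, at 0.16, did not pass (limma adjusted p = 0.197 over all probe sets).

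All 6 MCM subunits of the helicase ring fell, between -0.68 and -0.41. MCM2 read 9.29, 9.32, 9.19 and 9.25 in siGFP arrays and 8.67, 8.67, 8.52 and 8.48 in sibcat arrays. The groups stood clear of each other, with a difference of -0.68 (SE 0.0689, limma adjusted p = 5.42e-07). MCM4 fell by 0.46 (limma adjusted p = 0.00154), with 3 of its other probe sets lower and another, dim at a mean of 5.67, higher by 0.24 (limma adjusted p = 0.0316 over all probe sets).

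The polymerases fell less, with a median of -0.30. POLE2, an accessory subunit of polymerase epsilon, and PRIM1, the catalytic subunit of primase, were the members of this role that fell most, at -0.66 (limma adjusted p = 5.33e-07) and -0.62 (limma adjusted p = 2.15e-09). POLA1, POLA2, POLD1 and POLD3 fell by 0.23 to 0.35. The other probe sets of POLA2, both dimmer, gave -0.015 and 0.0775 and did not pass. Its call was lost with the mean of probe sets and without probe sets that can cross-hybridise. POLE, the catalytic subunit of polymerase epsilon, read 7.30, 7.46, 7.08 and 7.25 in siGFP arrays and 7.11, 7.06, 7.09 and 7.22 in sibcat arrays. The ranges overlapped, and the difference of -0.15 did not pass (limma adjusted p = 0.152). POLD2 did not pass either, at -0.22 (limma adjusted p = 0.0906), but its arrays A and B read above C and D in every group.

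The arrays of these groups met the pairing rule used here (every same-letter correlation of deviations over 0.1). Over all groups, 19 of 72 pairs with unlike letters exceeded 0.1 too, so the rule does not single out the letters. With the letters as a replicate block POLD2 (limma adjusted p = 0.00192) and GMNN (limma adjusted p = 0.0268) were called lower too, giving 51 lower and 0 higher. A block of A and B against C and D, chosen after the values were seen, gained the same 2 calls.

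RPA1, the largest subunit of the single-strand binding complex, stood apart from its partners. It read 11.12, 11.18, 11.23 and 11.22 in siGFP arrays and 11.19, 11.12, 11.35 and 11.32 in sibcat arrays. The ranges overlapped, and RPA1 was the only member with a difference above 0 in this comparison, at 0.06 (limma adjusted p = 0.506). RPA2 fell by 0.66 (limma adjusted p = 3.76e-08) and RPA3 by 0.15 (limma adjusted p = 0.0221), the latter lost without any of siGFP array A and sibcat arrays A and D. FEN1, the flap nuclease, and LIG1, the ligase that joins Okazaki fragments, fell by 0.31 and 0.20.

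The genes of nucleotide supply all fell. TYMS, which makes thymidylate, read 12.43, 12.36, 12.51 and 12.49 in siGFP arrays and 11.67, 11.70, 11.77 and 11.71 in sibcat arrays. RRM2, the small subunit of ribonucleotide reductase, read 13.09, 13.08, 13.09 and 13.14 in siGFP arrays and 12.63, 12.62, 12.61 and 12.64 in sibcat arrays. Neither gene had overlapping arrays, and the differences were -0.74 for TYMS (SE 0.0478, limma adjusted p = 2.40e-09) and -0.48 for RRM2 (SE 0.0417, limma adjusted p = 9.53e-08).

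Fork protection and chromatin genes fell as well. TIPIN, which with TIMELESS steadies stalled forks, read 8.50, 8.36, 8.47 and 8.57 in siGFP arrays and 7.57, 7.55, 7.56 and 7.57 in sibcat arrays. The sibcat arrays were nearly equal to each other and far below control, and the difference was -0.91 (SE 0.0499, limma adjusted p = 2.84e-10). UHRF1, which guides maintenance methylation to new DNA, fell by 0.67 (limma adjusted p = 8.23e-08). CHAF1A and CHAF1B, subunits of the histone chaperone CAF-1, fell by 0.28 and 0.41.

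In siTAZ cells the fall was uneven: 24 members fell, 4 rose and 25 did not pass the test. POLE2 read 54.7% of control, UHRF1 58.2%, TIPIN 59.9%, PRIM1 61.3% and PCNA 63.5%, and 8 members fell at least 1.5-fold. CDT1, RPA1, CHAF1A and FEN1 rose, to between 115.1% and 131.5% of control. For 22 members the siTAZ arrays lay wholly below the siGFP arrays (12.7% of all genes) and for 4 wholly above (16.9% of all genes). Of 30 other probe sets of the 28 called members, 11 passed in the same direction, 0 in the opposite one and the rest did not pass. Of the 24 falls, 10 kept their call under each of the 20 alternatives tried: MCM6, GINS1, PCNA, RFC3, PRIM1, POLE2, TYMS, UHRF1, CLSPN and TIPIN. The ACTB and GAPDH measures had higher means in these arrays than in siGFP arrays. With the ACTB measure as a covariate 20 members were lower and 6 higher, and the GAPDH measure was not used as a covariate. In that fit MCM4, CDC7, ORC6, RFC4 and RFC5 lost their calls, and ORC4, POLD2 and RRM1 gained one. With the arrays lettered A and B alone, a choice made after the values were seen, 15 members were lower.

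POLE2 read 9.36, 9.32, 9.39 and 9.45 in siGFP arrays and 8.41, 8.44, 8.62 and 8.57 in siTAZ arrays. The gap between the groups was wide, and the difference was -0.87 (SE 0.0673, limma adjusted p = 3.81e-08). PRIM1 read 10.20, 10.20, 10.18 and 10.21 in siGFP arrays and 9.45, 9.52, 9.52 and 9.48 in siTAZ arrays. Both groups were tight, and the difference was -0.71 (SE 0.0399, limma adjusted p = 1.02e-09). These were the 2 of 8 genes among polymerases and primase that fell; the catalytic subunits POLA1, POLD1 and POLE lay between 0.03 and 0.08 and did not pass.

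PCNA read 11.84, 11.87, 11.82 and 11.85 in siTAZ arrays, all below the lowest siGFP array, B at 12.21. The difference was -0.66 (SE 0.077, limma adjusted p = 4.69e-06). Among the loader subunits RFC3 (-0.49), RFC4 (-0.16) and RFC5 (-0.34) fell, and RFC1 and RFC2 did not pass. RFC5 read 9.62, 9.58, 9.83 and 9.70 in siTAZ arrays, so that C overlapped control array B. The RFC4 call was lost without any of siGFP arrays A and D or siTAZ arrays A and D.

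CDT1 moved the other way. It read 9.06, 9.04, 9.18 and 9.04 in siTAZ arrays, all above the 4 siGFP arrays (8.53 to 8.74), and the difference was 0.40 (SE 0.0584, limma adjusted p = 5.16e-05). A second, dimmer probe set of CDT1 gave 0.04 and did not pass (limma adjusted p = 0.764 over all probe sets), so the rise rests on 1 probe set. Both CDT1 probe sets are of a kind that can cross-hybridise, so the rise could not be checked without such probe sets. CDC6 read 8.42, 8.38, 8.73 and 8.66, overlapping control, with a difference of -0.27 that did not pass (limma adjusted p = 0.135), while its other probe set was lower by 0.32 (limma adjusted p = 0.00699 over all probe sets). GMNN read 10.34, 10.27, 10.30 and 10.25, within the control range, and did not pass at -0.06 (limma adjusted p = 0.601).

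Of the origin recognition complex only ORC5 (-0.24) and ORC6 (-0.23) fell. ORC6 read 10.04, 9.84, 10.20 and 10.20 in siGFP arrays and 9.78, 9.83, 9.95 and 9.80 in siTAZ arrays, with an overlap at control array B. Its call (limma adjusted p = 0.0388) was lost without any of siGFP arrays A, C and D or siTAZ arrays A, B and D. ORC1 read 6.66, 6.69, 6.66 and 6.74, overlapping control, and did not pass at -0.09 (limma adjusted p = 0.284).

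Of the MCM ring, MCM3, MCM4 and MCM6 fell and MCM2, MCM5 and MCM7 did not pass. MCM6 fell by 0.49 (SE 0.0466, limma adjusted p = 4.50e-07). MCM3 at -0.17 lost its call without any of 6 arrays (siGFP A, C and D, siTAZ B, C and D), and MCM4 at -0.34 lost it without siGFP array C or siTAZ array B. MCM2 read 9.51, 9.33, 9.27 and 9.32 in siTAZ arrays against 9.19 to 9.32 in siGFP arrays, a difference of 0.10 (limma adjusted p = 0.365).

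Of the helicase activators, MCM10, CDC45, GINS1, GINS2 and CDC7 fell. MCM10 read 7.85, 7.90, 8.13 and 8.12 in siTAZ arrays, all below control, a difference of -0.59 (SE 0.0942, limma adjusted p = 0.000108). Its other probe sets gave -0.13 and 0.04 and did not pass. GINS1 read 10.11, 9.93, 10.29 and 10.21, also below control, at -0.42 (SE 0.0864, limma adjusted p = 0.00124). GINS2 read 9.56, 9.58, 9.56 and 9.62 in siGFP arrays and 8.97, 8.91, 9.02 and 8.95 in siTAZ arrays, a difference of -0.62 (SE 0.042, limma adjusted p = 8.68e-09), but its dimmer probe sets, at 0.06 and 0.14, did not pass. CDC7 at -0.20 lost its call without any of siGFP arrays A, C and D or siTAZ arrays B and C.

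RPA1 read 11.41, 11.41, 11.52 and 11.41 in siTAZ arrays, above all siGFP arrays (11.12 to 11.23), a difference of 0.25 (SE 0.057, limma adjusted p = 0.00259). Its other probe sets gave 0.04 (limma adjusted p = 0.802 over all probe sets) and 0.24 (limma adjusted p = 0.337), so 1 of 3 passed. FEN1 read 11.42, 11.28, 11.42 and 11.37 in siGFP arrays and 11.52, 11.58, 11.59 and 11.61 in siTAZ arrays. It rose by 0.20 (SE 0.0448, limma adjusted p = 0.00204), and its dimmer probe set, at -0.01, did not pass (limma adjusted p = 0.968 over all probe sets). RPA2 fell by 0.23 (limma adjusted p = 0.00342), so the subunits of the complex did not move alike. The difference between subunits was not tested.

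TYMS read 11.75, 11.81, 11.81 and 11.82 in siTAZ arrays, far below control, a difference of -0.65 (SE 0.0478, limma adjusted p = 2.06e-08). RRM2 read 12.84, 12.85, 12.88 and 12.86, at -0.24 (SE 0.0417, limma adjusted p = 0.00023). DUT, which keeps uracil out of DNA, fell by 0.16 (limma adjusted p = 0.00527), while TK1, thymidine kinase of the salvage route, did not pass. RRM1, the large reductase subunit, has no clear direction here: the probe set used gave 0.21 and did not pass (limma adjusted p = 0.108), and its other probe set was lower by 0.38 (limma adjusted p = 0.0227 over all probe sets).

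UHRF1 read 11.06, 10.80, 11.05 and 10.97 in siGFP arrays and 10.22, 10.12, 10.26 and 10.16 in siTAZ arrays. No array overlapped, and the difference was -0.78 (SE 0.0577, limma adjusted p = 2.26e-08). TIPIN read 7.78, 7.74, 7.66 and 7.76 in siTAZ arrays, at -0.74 (SE 0.0499, limma adjusted p = 7.98e-09), while its partner TIMELESS did not pass at -0.12 (limma adjusted p = 0.0955). CLSPN, the claspin adaptor of the replication checkpoint, fell by 0.57 (limma adjusted p = 1.94e-05). CHAF1A read 8.35, 8.35, 8.40 and 8.39 in siGFP arrays and 8.64, 8.59, 8.53 and 8.65 in siTAZ arrays, a rise of 0.23 (SE 0.0462, limma adjusted p = 0.00092) that 1 of its 3 other probe sets shared, whereas CHAF1B fell by 0.25 (limma adjusted p = 0.00659).

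**Figure D3:**
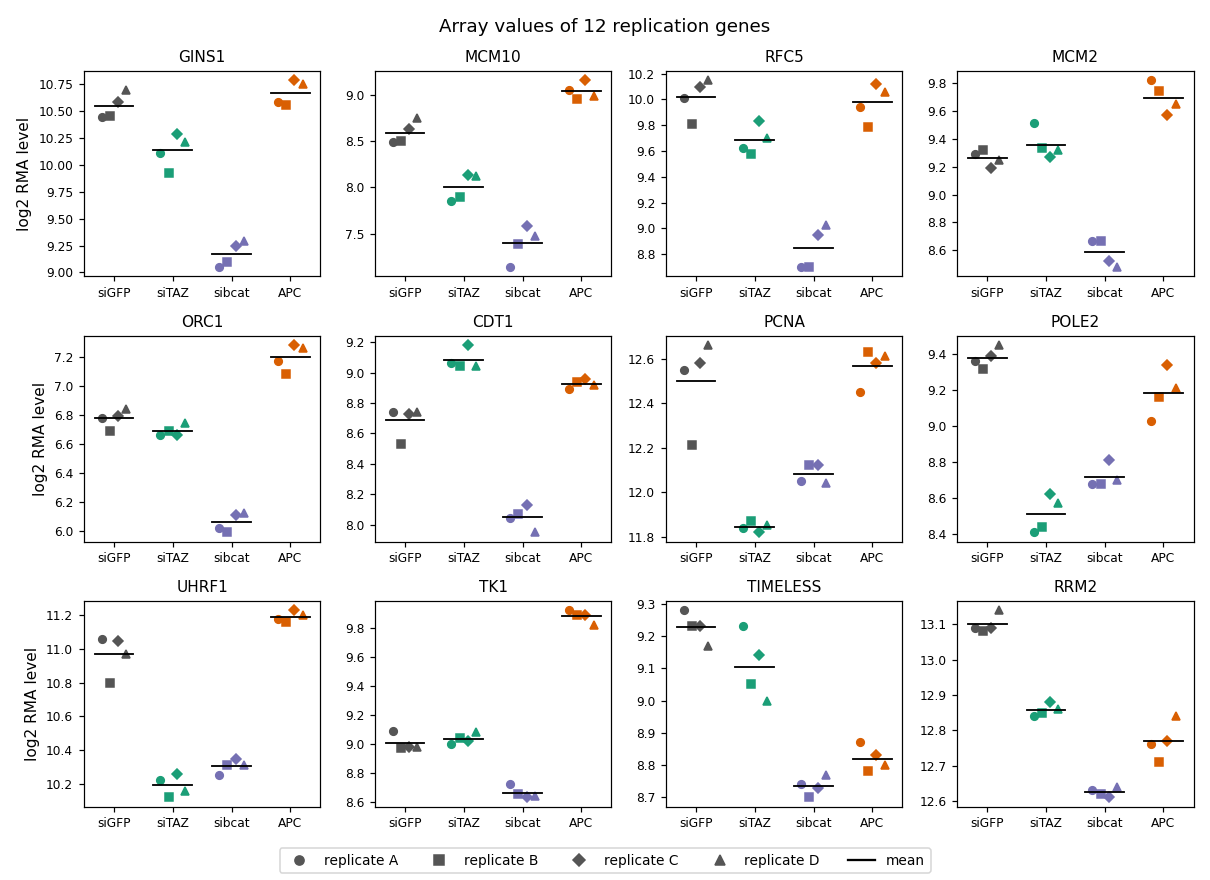
Each panel plots the log2 level of a replication gene in the 16 arrays, by group, with a symbol for each replicate letter and a line at the group mean; the vertical scale differs between panels and does not start at 0. GINS1, MCM10, RFC5, MCM2, ORC1 and CDT1 are lowest in sibcat cells, PCNA, POLE2 and UHRF1 have their lowest mean in siTAZ cells, and TIMELESS and RRM2 are lower in APC cells than in siGFP cells.

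In APC cells the direction was the opposite for most called members: 30 rose, 6 fell and 17 did not pass. TK1 read 183.4% of control, GINS2 172.6%, MCM5 147.2%, POLD3 139.7% and MCM10 136.4%, and TK1 and GINS2 were the 2 that rose at least 1.5-fold. The members that fell were TIMELESS, PRIM1, RRM2, ORC6, POLE2 and RPA3, none by as much as 1.5-fold. For 27 members the APC arrays lay wholly above the siGFP arrays (16.0% of all genes), and for 4, PRIM1, RPA3, RRM2 and TIMELESS, wholly below (15.7% of all genes). With the ACTB measure as a covariate the counts were 30 higher and 6 lower, and with letters A and B alone 19 higher and 3 lower.

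TK1 read 9.09, 8.97, 8.98 and 8.98 in siGFP arrays and 9.92, 9.89, 9.89 and 9.82 in APC arrays. The groups were far apart, and the difference was 0.88 (SE 0.0458, limma adjusted p = 1.25e-10), with 0.87 from its other probe set. Nucleotide supply did not move as a whole. RRM2 read 12.76, 12.71, 12.77 and 12.84 in APC arrays, all below control, a difference of -0.33 (SE 0.0417, limma adjusted p = 7.29e-06). DUT rose by 0.20 (limma adjusted p = 0.000991), while TYMS, at 12.34, 12.31, 12.39 and 12.42 in APC arrays, overlapped control and did not pass at -0.08 (limma adjusted p = 0.214), nor did RRM1.

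GINS2 read 10.37, 10.34, 10.39 and 10.37 in APC arrays, a rise of 0.79 (SE 0.042, limma adjusted p = 1.57e-10). Its 2 dimmer probe sets gave 0.87 (limma adjusted p = 1.06e-06 over all probe sets) and 0.12, which did not pass. MCM10 read 9.05, 8.96, 9.16 and 8.99 in APC arrays, all above control, a rise of 0.45 (SE 0.0942, limma adjusted p = 0.00117), and both of its other probe sets rose. GINS1 read 10.59, 10.56, 10.79 and 10.75, overlapping control, and did not pass at 0.12 (limma adjusted p = 0.319). In all, 5 of the 8 helicase activators rose and 0 fell, and none of the 8 was lower at an unadjusted p under 0.05 apart from DBF4, which did not pass after adjustment (-0.16, limma adjusted p = 0.112).

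MCM5 read 8.79, 8.79, 8.77 and 8.68 in siGFP arrays and 9.34, 9.37, 9.25 and 9.30 in APC arrays. No array overlapped, and the rise was 0.56 (SE 0.0681, limma adjusted p = 4.89e-06). MCM2 read 9.82, 9.74, 9.57 and 9.65 in APC arrays, a rise of 0.43 (SE 0.0689, limma adjusted p = 8.59e-05). MCM3 and MCM6 rose by 0.34 and 0.15, and MCM4 and MCM7 did not pass with the probe sets used. The other probe set of MCM7 was higher by 0.23 (limma adjusted p = 0.00339 over all probe sets). Of the other MCM4 probe sets, those at 0.37 and 0.25 were called higher, and those at 0.175 and -0.005 did not pass. MCM6 lost its call without any of siGFP arrays B and C or APC array C. These groups met the pairing rule too, and with the replicate block MCM4 was called higher as well (limma adjusted p = 0.0467), giving 31 higher and 6 lower.

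Origin recognition split. ORC1 read 7.17, 7.08, 7.28 and 7.26 in APC arrays, all above control, a rise of 0.42 (SE 0.0553, limma adjusted p = 1.05e-05), and ORC2, ORC3 and ORC5 rose as well. ORC6 read 9.71, 9.79, 9.98 and 9.84 in APC arrays, overlapping the siGFP arrays (9.84 to 10.20), with a difference of -0.24 (SE 0.08, limma adjusted p = 0.0281). That call was lost without any of siGFP arrays C and D or APC arrays A, B and D, and the ORC2 call without siGFP array B or APC array D. CDT1 rose, at 8.89, 8.94, 8.96 and 8.92 in APC arrays (0.24, SE 0.0584, limma adjusted p = 0.00346). CDC6, at 8.69, 8.65, 8.91 and 8.87, and GMNN, at 10.45, 10.36, 10.56 and 10.53, overlapped control and did not pass.

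The polymerases split by subunit. POLD3, an accessory subunit of polymerase delta, read 8.53, 8.44, 8.47 and 8.55 in siGFP arrays and 9.0, 8.98, 8.99 and 8.95 in APC arrays. The rise of 0.48 (SE 0.0448, limma adjusted p = 1.93e-07) was also seen in its dimmer probe set, at 0.75 (limma adjusted p = 6.06e-06 over all probe sets). POLA1, POLA2 and POLD1 rose by 0.24 to 0.39. PRIM1 read 9.84, 9.85, 9.85 and 9.81 in APC arrays, all below control, at -0.36 (SE 0.0399, limma adjusted p = 1.63e-06). POLE2 read 9.03, 9.16, 9.34 and 9.21, with C above the lowest control array, at -0.20 (SE 0.0673, limma adjusted p = 0.0335). The POLE2 call was lost without any of siGFP arrays A, C and D or APC arrays A, B and D.

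PCNA read 12.45, 12.63, 12.58 and 12.61 in APC arrays, within the spread of control, and did not pass at 0.07 (limma adjusted p = 0.568). RFC5, at 9.94, 9.79, 10.12 and 10.06, was likewise mixed with control and did not pass at -0.04 (limma adjusted p = 0.808). RFC1 and RFC2 were the 2 of 6 in this role that rose, by 0.24 and 0.36. The other probe sets of RFC1, at 0.02 and 0.075, did not pass (limma adjusted p = 0.878 and 0.68 over all probe sets). With the mean of probe sets the RFC1 call was lost. FEN1, LIG1 and RPA1 rose by 0.34 to 0.36, with RPA1 at 11.52, 11.48, 11.58 and 11.59 in APC arrays. RPA3, the small subunit, fell by 0.17 (limma adjusted p = 0.0113). RPA2, at 0.15, lost its call without any of siGFP arrays B, C and D or APC arrays B, C and D.

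The fork protection partners moved apart. TIMELESS read 9.28, 9.23, 9.23 and 9.17 in siGFP arrays and 8.87, 8.78, 8.83 and 8.80 in APC arrays, a fall with no overlap, at -0.41 (SE 0.0524, limma adjusted p = 8.77e-06). Its dimmer probe set, at -0.16, did not pass (limma adjusted p = 0.275 over all probe sets). The TIMELESS call was lost without probe sets that can cross-hybridise. TIPIN read 8.85, 8.79, 8.88 and 8.86 in APC arrays, above all control arrays, at 0.37 (SE 0.0499, limma adjusted p = 1.48e-05). All 3 chromatin genes rose, UHRF1 by 0.22, CHAF1B by 0.23 and CHAF1A by 0.28. GINS3 and GINS4, at 0.20 and 0.24, kept their direction but lost their calls without siGFP array B, siGFP array C or APC array A, and also GINS3 without APC array C and GINS4 without APC array D.

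Set directly against sibcat cells, APC cells had higher replication genes nearly throughout. Of 53 members 51 were higher and 0 lower in APC cells (0 also at an unadjusted limma p under 0.05), against 20.3% of all genes called higher and 21.7% called lower. The median difference was 0.64, beside 0.01 over all genes, and 32 members were at least 1.5-fold and 9 at least 2-fold higher. For 50 members the APC arrays lay wholly above the sibcat arrays (19.2% of all genes), and for 0 wholly below (20.7% of all genes). MCM10 differed by 1.64 (SE 0.0942, limma adjusted p = 3.09e-10), GINS2 and GINS1 by 1.5 each, TIPIN by 1.28 and TK1 by 1.22. RPA3 (-0.02, limma adjusted p = 0.797) and TIMELESS (0.09, limma adjusted p = 0.225), both lower than control in each of these groups, did not pass.

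Between the 2 siRNA groups, 41 members were higher in siTAZ than in sibcat cells and 2 were lower, against 18.9% and 17.8% of all genes. The median difference was 0.30, beside 0.01 over all genes. For 41 members the siTAZ arrays lay wholly above the sibcat arrays (18.9% of all genes) and for 3 wholly below (17.6% of all genes). CDT1 differed most by the probe sets used, at 1.03 (SE 0.0584, limma adjusted p = 2.97e-10), followed by GINS1 at 0.96 and RFC5 at 0.84. The other probe set of CDT1 gave 0.615, called higher as well. Those of RFC5 gave 0.55, called higher, and 0.145, which did not pass. The members lower in siTAZ cells were PCNA, at -0.24 (limma adjusted p = 0.0218), and POLE2, at -0.21 (limma adjusted p = 0.0218). In both genes the siTAZ arrays lay wholly below the sibcat arrays, but leaving out 1 array left between 0 and 2 of these calls, and without sibcat array C both were lost. PRIM1, UHRF1, TYMS and GINS2 did not pass, so their falls in the 2 groups were not shown to differ. With the replicate block, which applied here, CLSPN was also called higher (limma adjusted p = 0.0303).

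**Figure D4:**
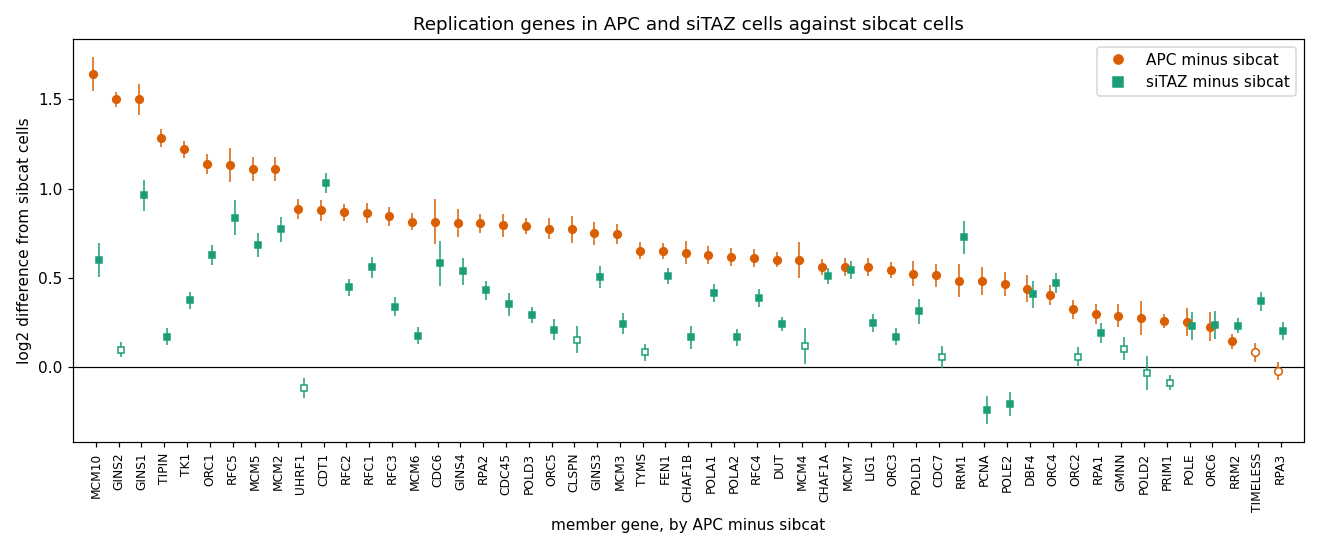
The points give the log2 difference of each replication gene from sibcat cells in APC cells (orange circles) and siTAZ cells (green squares), with standard errors from the limma fit as bars, ordered by the APC difference; filled points passed an adjusted p under 0.05. MCM10 stands highest for APC cells at 1.64 and CDT1 highest for siTAZ cells at 1.03, while PCNA and POLE2 are the filled squares below 0.

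Against APC cells, 40 members were lower and 4 higher in siTAZ cells, against 19.9% and 22.4% of all genes, with a median difference of -0.35 beside 0.00 over all genes. For 38 members the siTAZ arrays lay wholly below the APC arrays (19.3% of all genes) and for 3 wholly above (21.7% of all genes). GINS2 (-1.41), TIPIN (-1.11), MCM10 (-1.04) and UHRF1 (-1.0) were at least 2-fold lower. The 4 higher members were TIMELESS (0.29), RRM1 (0.24), RPA3 (0.22) and CDT1 (0.15, limma adjusted p = 0.0454). The CDT1 call was at the edge of the threshold, and leaving out any 1 array left 2 or 3 of the 4 calls. The second probe sets of CDT1 (-0.21, limma adjusted p = 0.0276 over all probe sets) and RRM1 (-0.39, limma adjusted p = 0.0118) were called lower, opposite to those used, so neither gene has a settled direction here.

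Other genes of replication, outside the 53 members, were measured for 41 of 44 listed. In sibcat cells 26 of the 41 were lower and 3 higher than in siGFP cells, against 17.3% and 18.6% of all genes. In siTAZ cells 18 were lower and 5 higher, against 13.1% and 17.0%, and in APC cells 6 were lower and 12 higher, against 17.1% and 16.6%. Their medians were -0.31, -0.15 and 0.11. The 5 higher in siTAZ cells and the 6 lower in APC cells were shares no larger than those over all genes. In sibcat cells DSCC1, a part of an alternative clamp loader, fell by 1.04 (limma adjusted p = 1.87e-09), DTL, which targets CDT1 for destruction in S phase, by 0.78 (limma adjusted p = 7.05e-09), and RAD1, of the checkpoint clamp, by 0.74 (limma adjusted p = 2.55e-08). POLD4, the smallest polymerase delta subunit, rose there by 0.80 (limma adjusted p = 2.45e-07), TOP1 by 0.49 and RAD9A by 0.33. In siTAZ cells PRIM2, the large primase subunit and partner of PRIM1, read 7.57, 7.18, 7.79 and 7.78 in siGFP arrays and 6.08, 6.10, 6.15 and 6.18 in siTAZ arrays. It was the gene of this list that fell most, by 1.45 (SE 0.145, limma adjusted p = 7.86e-07). MCM8 fell by 1.08 (limma adjusted p = 1.57e-06) and ASF1B, a histone chaperone, by 0.55 (limma adjusted p = 0.000284). RRM2B, the p53-inducible reductase subunit, rose by 0.53 (limma adjusted p = 0.00321), ASF1A by 0.45 and RAD9A by 0.27. In APC cells RRM2B fell by 0.79 (limma adjusted p = 7.90e-05), the checkpoint kinase gene CHEK1 by 0.54 and SUPT16H, of the FACT chaperone, by 0.44, while ATAD5, which unloads PCNA, rose by 0.59 (limma adjusted p = 0.013), DTL by 0.51 and TICRR, which helps to fire origins, by 0.38.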

How the data were processed

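RNA from 16 samples of SW480 cells, 4 in each of 4 groups, was measured on Affymetrix arrays. The authors deposited 1 table of log2 expression levels per probe set and array, made with RMA per the submitters' processing notes. RMA makes the arrays' distributions alike, which hides any shift in a cell's whole RNA content. That the scale is log2 was inferred from its range (1.80 to 14.56). Arrays have no read depth, and precision is set by how many arrays a group has.

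Of 54675 probe sets, 41097 had 1 gene in the platform annotation, 1801 several and 11777 none, giving 19775 genes. All arrays entered 1 limma 3.58.1 fit (R 4.3.3, lmFit and eBayes, a mean per group, no block) for 6 comparisons. In simulated arrays with the siTAZ comparison's design the same steps on 19775 genes recovered 78% of changes of 0.5 and 98% of changes of 1.0, with 7 false calls. The simulated noise was independent between genes and arrays, and far fewer genes were changed than were called in the data. These rates may therefore not hold for the real arrays. Array values are given for the 5 members most changed in each comparison with siGFP, up to 5 called against the main direction, and PCNA, MCM2, CDC6, CDT1, GMNN, ORC1, RRM2 and TYMS; the other members are given by ranges and counts. Other replication genes are named where among the 3 largest per direction. The members and lists were chosen with earlier results of these data known.

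Same-letter arrays were checked for pairing by the correlation of deviations from group means over all genes: every pair exceeded 0.1 for sibcat against siGFP (0.124 to 0.403), APC against siGFP (0.130 to 0.371), siTAZ against sibcat (0.105 to 0.197) and APC against sibcat (0.147 to 0.371), but not for siTAZ against siGFP (lowest 0.092) or siTAZ against APC (lowest 0.084). The pairing is inferred from the data, and 19 of 72 pairs with unlike letters exceeded 0.1 as well. Promoters came from a RefSeq table on GRCh38.p14; MCM4, MCM5, GINS4, POLD3, RPA2 and RPA3 had no window used here. Alternatives changed the block, samples in the fit, filter, probe set choice, scaling, RNA quality, prior, weights and arrays. Figures were drawn with matplotlib 3.10.9.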

Additional observations from a re-analysis of the deposited data

Results flagged for a closer look

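Each of the 212 sets of 4 arrays (53 members in 4 groups) was checked for an array whose gap to its nearest neighbour, as a share of the set's whole range, passed Dixon's 95% critical value. This marked 13 sets, where chance marks about 5% of sets. The gaps were small in log2 terms for most, and no group or letter held all of them.

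In siGFP cells, CDT1 was low in replicate B at 8.53 (the others lay from 8.73 to 8.74), RRM2 was high in D at 13.14, and TK1 was high in A at 9.09. In siTAZ cells, CDT1 was high in C at 9.18, RPA1 was high in C at 11.52 where the other 3 arrays all read 11.41, RFC1 was low in A at 8.40 and TYMS was low in A at 11.75. In sibcat cells, ORC2 was high in C at 9.01, PRIM1 in A at 9.62, POLD1 in B at 7.82, POLE2 in C at 8.81 and RPA2 in D at 9.19, the last only because its other 3 arrays all read 9.18. In APC cells, CHAF1A was low in D at 8.61. The rises of CDT1 and RPA1 in siTAZ cells kept their calls without any 1 array of either group.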

How the results depend on the processing

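Over 20 alternatives, 219 of 240 counts of called members stayed within 1.5 times the reported count and 21 moved. Of 3147 values of single genes, 2935 kept direction and call, 146 lost the call, 60 gained it and 6 changed sign; for values that changed, the cause was not tested. Against siGFP, 10 of 24 siTAZ falls, 30 of 49 sibcat falls and 13 of 30 APC rises held under all 20; 8 more sibcat falls and 3 more APC rises held under all but the one without cross-hybridising probe sets, which has no value for them. With letters A and B alone, a choice made after seeing the data and with fewer arrays, siTAZ cells had 15 members lower, APC cells 3 lower and 19 higher, and siTAZ cells 1 lower than sibcat cells and 1 higher than APC cells; with C and D alone, also chosen after seeing the data, 1 was lower in siTAZ than in sibcat cells. Without probe sets that can cross-hybridise, 42 members were left. Of these, 2 rose in siTAZ cells, 27 were higher in siTAZ than in sibcat cells and 2 higher in siTAZ than in APC cells. These values changed sign: MCM10 (0.035) and GINS2 (0.055) in siTAZ cells, and GINS2 (0.0725), RFC1 (0.07) and CHAF1A (0.005) in sibcat cells. The RFC1 and CHAF1A values came from probe sets with means over all arrays of 4.11 and 3.82, below the median probe set level. Those used for MCM10 and GINS2, with means of 7.29 and 6.4, lay above it. A brighter RFC1 probe set left out here, with a mean of 8.39, gave -0.68 in sibcat cells and was called lower. Other CHAF1A probe sets left out gave -0.225, called lower, and -0.2175, which did not pass. With the mean of probe sets, ORC2 in sibcat cells stood at 0.00 and 2 members were higher in siTAZ than in APC cells, as with median-centred arrays. Leaving out 1 array left 0 to 2 members lower in siTAZ than in sibcat cells and 2 to 3 higher in siTAZ than in APC cells. With a replicate block, 28 members were lower and 5 higher in siTAZ than in siGFP cells, where CDC6, DBF4, POLD2, RRM1 (higher, against its other probe set) and TIMELESS gained the call, and 41 were lower in siTAZ than in APC cells, where CDC6 gained it; 7 of 16 arrays correlated best with their own letter. The block changed no call besides these and those given with the results. With 4 arrays a group the fit cannot resolve differences near the SE of 0.0399 to 0.125.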
